A study of Rattus norvegicus with 138 samples.

Results

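The caudal ventrolateral medulla (CVLM) was compared with the rostral ventrolateral medulla (RVLM) within the same normotensive Wistar-Kyoto (WKY) rats. Every WKY column of the CVLM table was taken and set against the RVLM column of the same animal, which gave 18 rats and 36 of the 138 libraries of the series. The rats were untreated females of the substrain WKY/NHsd, aged 8 wk (5 rats), 10 wk (4), 12 wk (3), 16 wk (3) or 24 wk (3). Spontaneously hypertensive rats (SHR/NHsd, also female and untreated, 28 in number and aged 8 to 24 wk as well) gave the same 2 regions and were used to see the regional difference in other animals, and the nucleus of the solitary tract (NTS) of the WKY rats is quoted for its level alone. RNA came from punches of frozen brainstem sections, with the punches of both sides of an animal pooled, so that a library holds every cell type under the punch. In such bulk RNA, fewer cells of a type and less RNA per cell cannot be told apart.

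The CVLM and RVLM are neighbouring columns of the ventral medulla that set sympathetic outflow to the heart and vessels. Excitatory presympathetic neurons of the RVLM, many of them adrenergic, drive the spinal cord, and inhibitory neurons of the CVLM hold them in check when the NTS relays baroreceptor input. Noradrenergic neurons, respiratory premotor neurons and the motor neurons of the nucleus ambiguus lie beside or among both groups, and the inferior olive and lateral reticular nucleus lie close to the CVLM level.

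Total expected counts per library ran from 7897443 to 16320314 in the CVLM (median 9957941) and from 8437230 to 17889406 in the RVLM (median 10134231.5). Of 32883 genes, 13457 were tested. Along component 1 of a principal component analysis (25.1% of variance) CVLM libraries lay between -55.9 and 8.99 and RVLM libraries between -29.3 and 62.6, so the regions overlapped. A few libraries, 5 in number, stood apart on a component or by the transcripts they held and are named here by age and replicate number. The RVLM libraries of 16 wk replicate 3 and 24 wk replicate 3 lay among the CVLM libraries on component 1. In the RVLM library of 8 wk replicate 3 the nuclear complex I genes summed to 22500 CPM (CPM, library-scaled counts on edgeR's TMM scale), the highest of the 36. The CVLM library of 10 wk replicate 4 held serotonergic transcripts, with Tph2 at 116 CPM, and that of 12 wk replicate 2 held Ttr of the choroid plexus at 177 CPM, while both lay beside other CVLM libraries on the components. The CVLM library of 12 wk replicate 1, at -54.8 on component 3, also lay away from the other CVLM libraries and was left out only as 1 rat at a time. The CVLM library of 8 wk replicate 5 carries conflicting ages in its labels and was placed at 8 wk by its title. Library names end in the number 1 (11 rats) or 2 (7 rats, 3 of 8 wk and all 4 of 10 wk), the same in both regions of each rat. What goes with the number and is shared by both regions therefore cancels within a rat, but what differs between the regions does not. Across rats the number is tied to age except at 8 wk, where 2 rats end in 1 and 3 in 2.

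**Figure D1:**
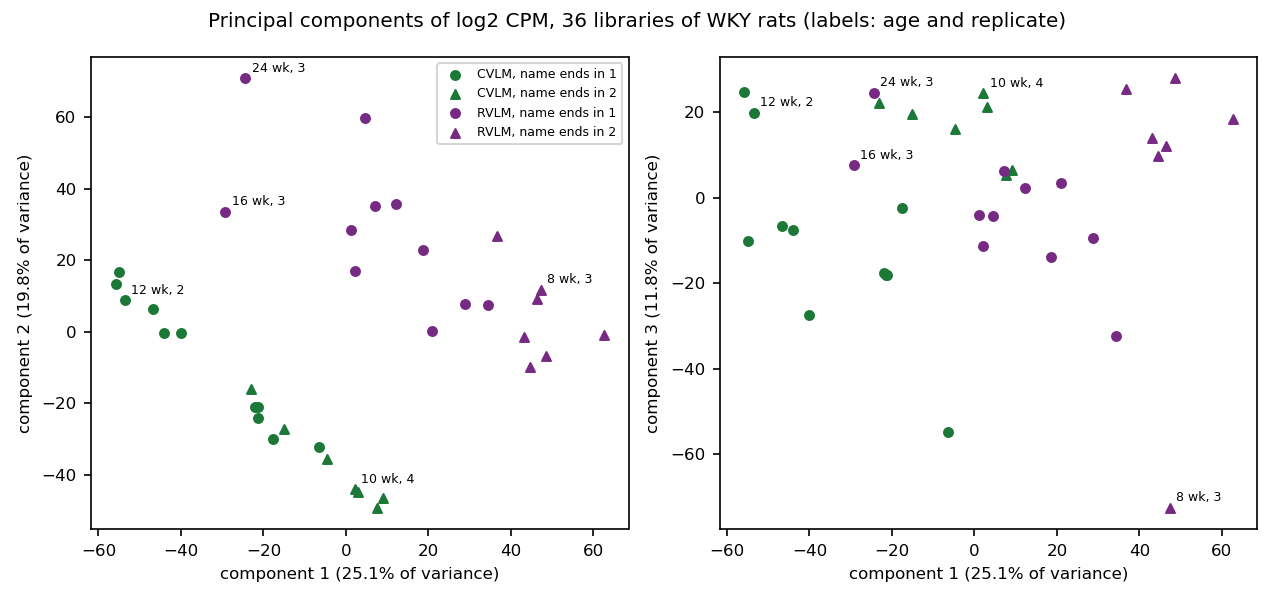
Each point is 1 library, placed by principal components of log2 CPM (component 1 against 2 at left and against 3 at right), with colour for the region and shape for the number that ends the library name. CVLM libraries lie mostly at the left of component 1 and RVLM libraries at the right, and the 5 labelled libraries are those set aside in an alternative, of which the 2 CVLM libraries lie beside other CVLM points.

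In the paired comparison a gene passed at an adjusted p of at most 0.01 (edgeR's quasi-likelihood test with the rat as a block, Benjamini-Hochberg over 13457 genes) and was called when it also changed at least 2-fold. Of the genes tested, 1718 (12.8%) passed as higher in the CVLM and 1622 (12.1%) as higher in the RVLM, 24.8% in all, and 399 (2.96%) and 317 (2.36%) were called. Counts of list members that passed, given below, are to be read against the 12.8% and 12.1%. The median log2 fold change of CVLM over RVLM was 0.0065 over all genes, on a TMM scale that itself centres most genes near 0. Of the called genes, 226 and 217 had the same direction in all 18 rats, as had 6.97% of all genes tested, and 268 genes (1.99% of all tested) had ranges that did not overlap between the regions. Without the 5 rats of the libraries named above, an alternative chosen after seeing the data, 386 of the 399 and 306 of the 317 genes were still called. Every called gene kept its sign in rats whose library names end in 1 and in rats whose names end in 2. These are the rats from which the genes were called, so this is a description and no separate support.

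**Figure D2:**
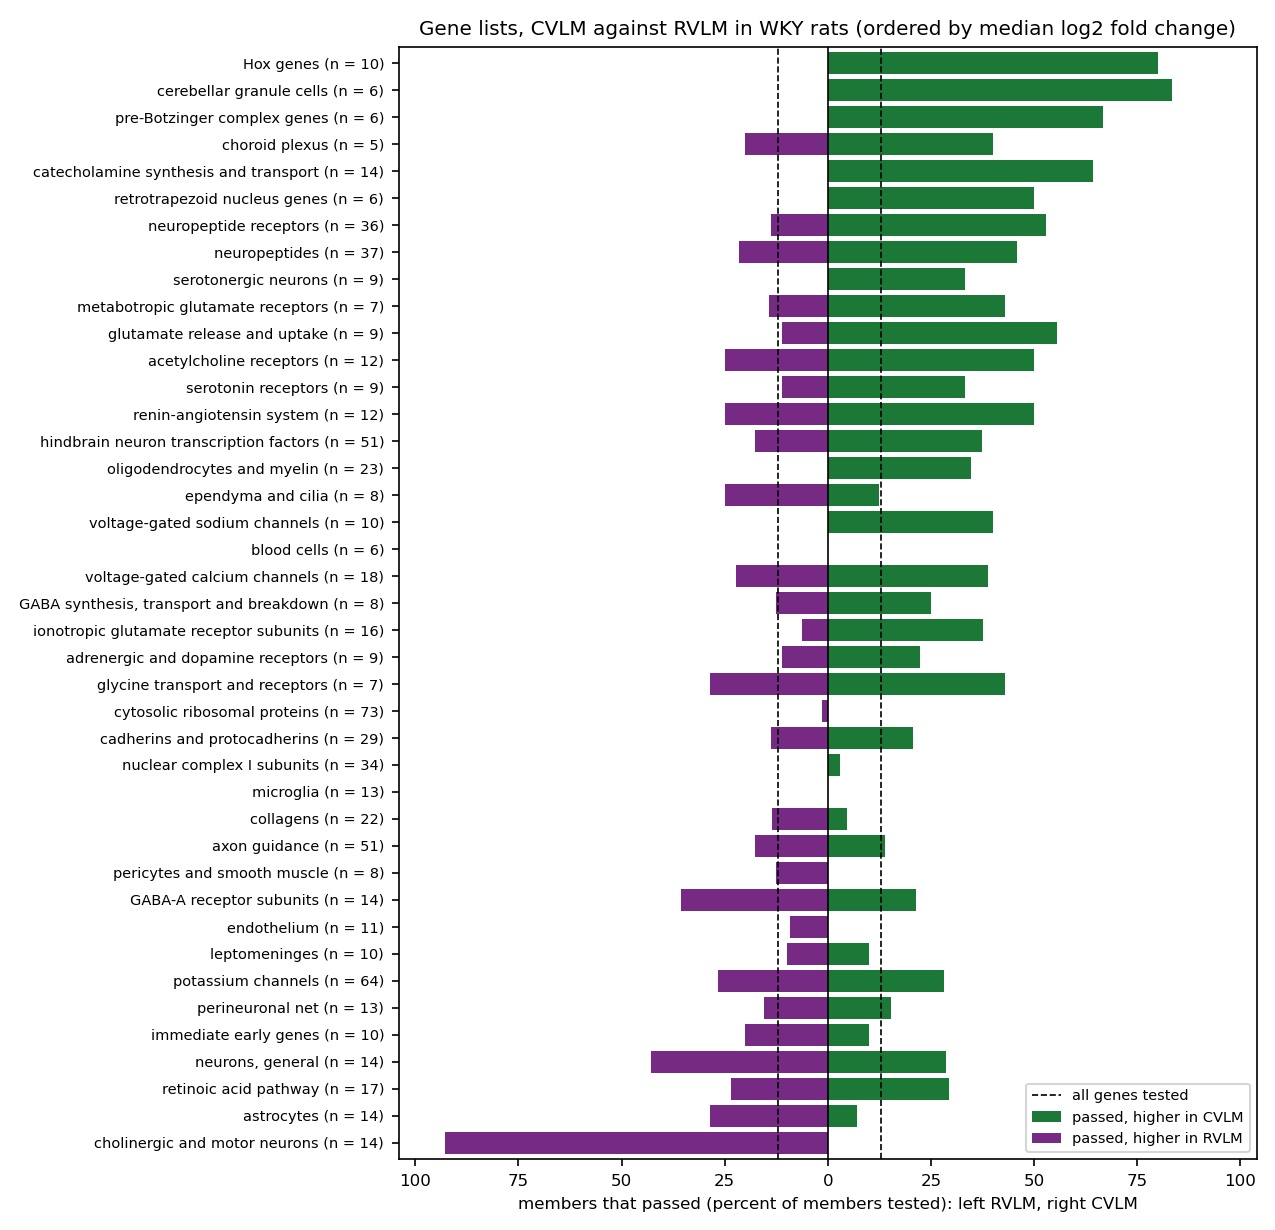
Bars give the percentage of tested members of each gene list that passed the test as higher in the CVLM (right) or in the RVLM (left), with the number tested in brackets and dashed lines at the shares over all genes (12.8% and 12.1%). Lists are ordered by their median log2 fold change, from the cholinergic and motor neuron list at the bottom to granule cell and Hox genes at the top.

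Hox genes, the homeodomain factors whose paralog number marks position along the hindbrain and spinal cord, were higher in the CVLM. Of 10 tested, 8 passed as higher in the CVLM and none as higher in the RVLM, with 7 called and a median log2 fold change of 2.32. Hoxb5 ran from 24.95 to 90.7 CPM in the CVLM (median 57.2) and from 0.119 to 1.86 CPM in the RVLM (median 0.465), a log2 fold change of 6.598 ± 0.21 (SE, edgeR adjusted p = 5.8e-16). The ranges lay far apart in every rat.

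Among the Hox genes tested, fold changes were larger in those of higher paralog number, a description with no test, from 3.14 to 6.60 (log2) in Hoxb4, Hoxc4, Hoxc5, Hoxb5 and Hoxb6 against 0.55 to 1.498 in Hoxd1, Hoxa2, Hoxb2, Hoxb3 and Hoxd3. For Hoxd1 the log2 fold change was 0.55 ± 0.31 and for Hoxb3 it was 0.78 ± 0.26 (SE), and neither passed (edgeR adjusted p = 0.18 and 0.025). The other 8 passed, among them Hoxa2 at 0.97, Hoxb2 at 1.45 and Hoxd3 at 1.498. Hoxc4 ran from 11.5 to 21.01 CPM in the CVLM (median 15.1) and from 0.298 to 3.69 CPM in the RVLM (median 1.28). Hoxc5 ran from 11.9 to 27.1 CPM in the CVLM (median 16.3) and from 0 to 1.55 CPM in the RVLM (median 0.512). As with Hoxb5, no RVLM library of either gene reached the lowest CVLM library. In the NTS of the same rats the medians of Hoxb5, Hoxc4 and Hoxc5 were 93.2, 20.7 and 21.6 CPM.

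Hoxb6 was at a median of 0 CPM in the RVLM, with at most 0.133 CPM, against 0.155 to 4.74 CPM in the CVLM, so its fitted fold change depends on few counts. The table holds 43 rows of 38 Hox symbols, and 33 rows were too low to be tested. Of these, 15 had more counts in the CVLM, 8 had more in the RVLM and 10 were equal, 7 of them with no count in either. Hoxc6 had 226 counts over the CVLM libraries and 3 over the RVLM libraries, whereas Hoxd4 had 181 and 81, Hoxc8 27 and 28, and Hoxc9 7 and 10, so the untested genes do not all follow the order by paralog number.

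**Figure D3:**
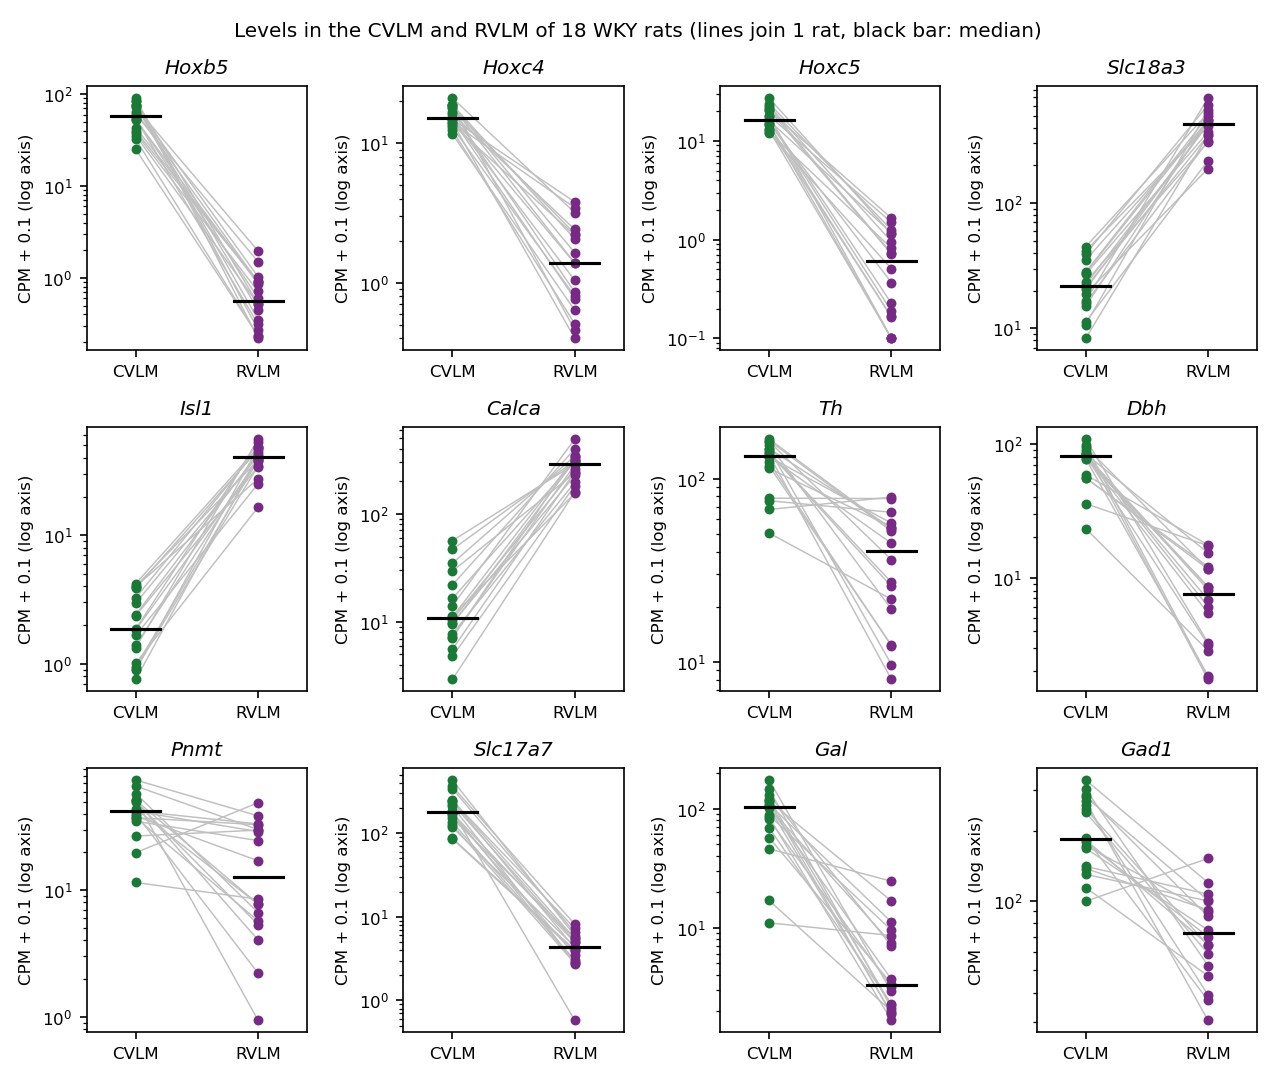
Each panel shows 1 gene in CPM with 0.1 added on a log axis, with a line joining the CVLM and RVLM libraries of a rat and a black bar at the median of 18 rats. Lines of Hoxb5, Hoxc4, Hoxc5, Slc17a7, Dbh and Gal fall from CVLM to RVLM in every rat, those of Slc18a3, Isl1 and Calca rise in every rat, and Th, Pnmt and Gad1 have rats that go the other way.

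Genes of cholinergic and motor neurons were higher in the RVLM. Of 14 tested, 13 passed as higher in the RVLM and none as higher in the CVLM, 12 were called, and the median log2 fold change was -3.54. Slc18a3, the vesicular acetylcholine transporter, ran from 188 to 689.5 CPM in the RVLM (median 426) and from 8.21 to 44.6 CPM in the CVLM (median 21.6), a log2 fold change of -4.21 ± 0.17 (SE, edgeR adjusted p = 6.2e-14). Chat, choline acetyltransferase, ran from 74.5 to 337 CPM in the RVLM (median 228) and from 6.69 to 34.2 CPM in the CVLM (median 17.3), a log2 fold change of -3.71 ± 0.17 (SE, edgeR adjusted p = 2.5e-13). In neither gene did the regions overlap. Slc18a3 lies within an intron of Chat, so reads of this pair may not be fully separate. Slc5a7, the choline transporter that supplies the synthesis, ran from 223 to 1011 CPM in the RVLM (median 578) and from 26.7 to 108 CPM in the CVLM (median 57.4), a log2 fold change of -3.35 ± 0.11 (SE, edgeR adjusted p = 5.8e-16).

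Identity genes of motor neurons followed the transmitter genes. Isl1, a LIM homeodomain factor of motor neurons, ran from 16.4 to 55.97 CPM in the RVLM (median 40.6) and from 0.657 to 4.11 CPM in the CVLM (median 1.75), a log2 fold change of -4.31 ± 0.20 (SE, edgeR adjusted p = 2.8e-13). Calca, which encodes calcitonin gene-related peptide, ran from 154 to 489.9 CPM in the RVLM (median 285) and from 2.84 to 56.1 CPM in the CVLM (median 10.7), a log2 fold change of -4.397 ± 0.25 (SE, edgeR adjusted p = 1.4e-11). All 18 rats had both genes higher in the RVLM. Log2 fold changes were -3.7004 for its paralog Calcb, whose reads may be shared with Calca in part, -3.89 for Slc10a4 of cholinergic vesicles, -3.698 for Chodl, -3.37 for the intermediate filament peripherin (Prph), and -2.06, -1.91 and -1.59 for the neurofilaments Nefm, Nefh and Nefl. Ache, acetylcholinesterase, passed at -0.33, and Uts2b at 0.33 did not pass (edgeR adjusted p = 0.61). Isl2 and Mnx1 were not tested, with 17 and 98 counts of Isl2 and 1 and 0 of Mnx1 over the CVLM and RVLM libraries.

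Summed over the list, levels ran from 10132 to 30800 CPM in the RVLM and from 4242 to 7840.1 CPM in the CVLM, without overlap. The neurofilaments Nefl, Nefm and Nefh made up most of this sum, with 2770968, 1010340 and 334597 counts over the RVLM libraries. The lowest RVLM sum was that of 16 wk replicate 3, 1 of the libraries named above as apart. Outside the list, Uts2 (urotensin, a peptide of cholinergic motor neurons) ran from 17.1 to 174 CPM in the RVLM (median 50.2) and from 1.11 to 9.79 CPM in the CVLM (median 4.28), and Lhx4 and Shox2, homeodomain factors of hindbrain and spinal neurons, had log2 fold changes of -3.0996 and -4.01. In the NTS, whose punch borders the dorsal vagal motor nucleus, Slc18a3 had a median of 92.2 CPM, between the other two regions.

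Genes that make, store and take up catecholamines were higher in the CVLM. Of 14 tested, 9 passed as higher in the CVLM, none as higher in the RVLM, and 7 were called, with a median log2 fold change of 0.92. Dbh, dopamine beta-hydroxylase, which turns dopamine into noradrenaline, ran from 23.2 to 109 CPM in the CVLM (median 81.2) and from 1.64 to 17.5 CPM in the RVLM (median 7.39), a log2 fold change of 3.43 ± 0.31 (SE, edgeR adjusted p = 1.5e-08). Every CVLM library exceeded every RVLM library. Th, tyrosine hydroxylase, the rate-limiting enzyme, ran from 50.4 to 164 CPM in the CVLM (median 133) and from 7.91 to 79.2 CPM in the RVLM (median 40.1), a log2 fold change of 1.87 ± 0.29 (SE, edgeR adjusted p = 2.5e-05). It was higher in the CVLM in 17 of 18 rats, with overlapping ranges.

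Pnmt, the enzyme that makes adrenaline and marks adrenergic neurons, ran from 11.4 to 73.9 CPM in the CVLM (median 41.9) and from 0.835 to 48.9 CPM in the RVLM (median 12.7), a log2 fold change of 1.63 ± 0.40 (SE, edgeR adjusted p = 0.003). It was higher in the CVLM in 16 rats and lower in 2, and the ranges overlapped widely. Adrenergic neurons are best known from the RVLM, so Pnmt was not higher where the labels would place it. Hoxb5, Hoxc4 and Hoxc5, given above, were higher in the CVLM libraries in all 18 rats. Neither their bearing on the direction of Pnmt nor the reason for that direction was tested. The NTS median of Pnmt was 5.51 CPM, below both. Its difference was 0.99 in rats whose library names end in 1 and 2.68 in those ending in 2, and at 16 wk alone it was -0.13. Th gave 1.56 and 2.28, and Dbh gave 3.31 and 3.57, in the same 2 sets of rats. The CVLM library with serotonergic transcripts had the lowest CVLM values of all 3 enzymes (Th 50.4, Dbh 23.2 and Pnmt 11.4 CPM).

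**Figure D4:**
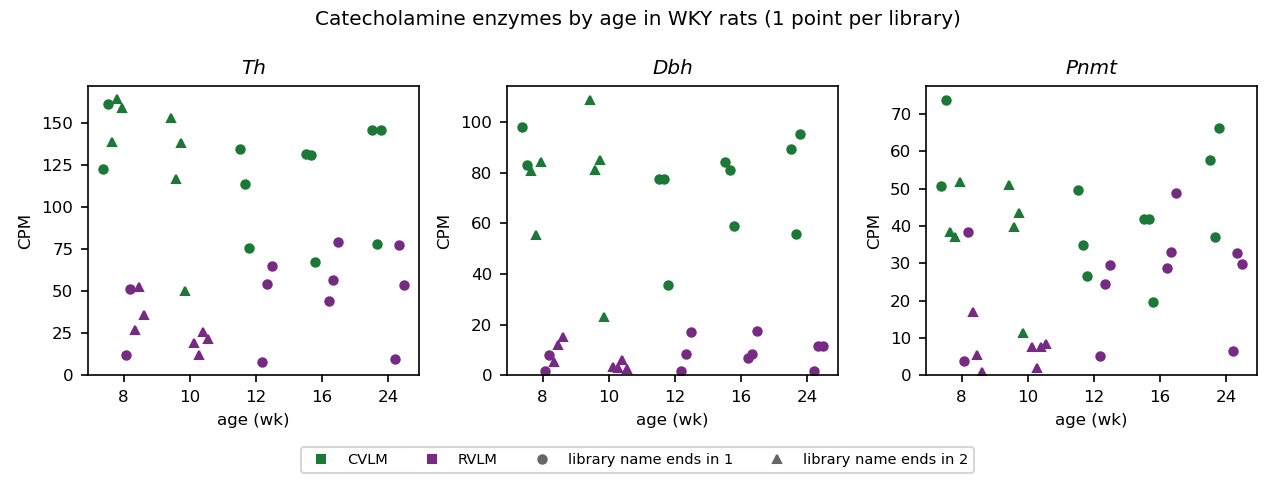
Points are single libraries in CPM by age, green for the CVLM and purple for the RVLM, with shape for the number that ends the library name. CVLM points of Dbh lie above all RVLM points at each age, while those of Pnmt overlap the RVLM points at 8, 12 and 16 wk.

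Further catecholamine genes were higher in the CVLM, and 5 of the 14 did not pass, with log2 fold changes from -0.10 to 0.22. Slc18a2, the vesicular monoamine transporter, ran from 27.2 to 79.03 CPM in the CVLM (median 59.2) and from 7.55 to 26.6 CPM in the RVLM (median 14.8), a log2 fold change of 1.85 ± 0.18 (SE, edgeR adjusted p = 4.7e-08), without overlap. Slc6a2, the noradrenaline transporter, ran from 1.89 to 12.8 CPM in the CVLM (median 6.07) and from 0.126 to 11.6 CPM in the RVLM (median 1.62), a log2 fold change of 1.96 ± 0.37 (SE, edgeR adjusted p = 2.8e-04), and missed the threshold without the 5 rats named above (log2 fold change 1.74, edgeR adjusted p = 0.013). Log2 fold changes of the remaining genes that passed were 1.06 for Gch1, which makes the cofactor of Th, 1.05 for Cyb561, which supplies electrons to Dbh, 0.797 for the decarboxylase Ddc and 0.46 for the degrading enzyme Maob. Of the factors that specify noradrenergic and adrenergic neurons, only Gata3 was tested and it did not pass (0.05 ± 0.33 SE, edgeR adjusted p = 0.94). Phox2a had 63 counts in the CVLM libraries and 12 in the RVLM libraries, and Hand2 none in either.

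Promoters of 4 genes that differed together are shown because they stand for the 2 opposed groups, Th and Dbh for the catecholamine genes and Slc18a3 and Calca for the cholinergic and motor genes. They are the 250 bases before the start of each gene in RefSeq on build GRCr8, whereas the counts were made on rn6. Capitals mark ATTA, the core bound by homeodomain proteins, in all 4, with TGACGTCA, the cyclic AMP response element, in Th, its core TGACG in Dbh and Calca, and the GC box GGGCGG in Slc18a3. Both strands were searched, so that reverse complements are in capitals too, and that core is part of the full element.
Th, chr1:207508219-207508468, minus strand: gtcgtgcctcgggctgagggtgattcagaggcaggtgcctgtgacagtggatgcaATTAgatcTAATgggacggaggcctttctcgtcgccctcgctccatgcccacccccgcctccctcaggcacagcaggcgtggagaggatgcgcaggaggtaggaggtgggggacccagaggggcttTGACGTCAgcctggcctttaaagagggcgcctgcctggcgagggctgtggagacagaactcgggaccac
Dbh, chr3:30886078-30886327, plus strand: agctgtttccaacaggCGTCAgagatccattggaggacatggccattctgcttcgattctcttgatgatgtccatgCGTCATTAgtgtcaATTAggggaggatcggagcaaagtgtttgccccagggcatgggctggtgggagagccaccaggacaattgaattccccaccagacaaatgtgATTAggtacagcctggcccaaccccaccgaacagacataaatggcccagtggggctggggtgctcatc
Slc18a3, chr16:7722815-7723064, minus strand: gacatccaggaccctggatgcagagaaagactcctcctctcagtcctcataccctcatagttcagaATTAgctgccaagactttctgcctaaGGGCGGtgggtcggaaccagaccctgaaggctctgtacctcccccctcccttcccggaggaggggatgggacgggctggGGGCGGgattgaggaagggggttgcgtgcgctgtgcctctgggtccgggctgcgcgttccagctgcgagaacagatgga
Calca, chr1:178317530-178317779, minus strand: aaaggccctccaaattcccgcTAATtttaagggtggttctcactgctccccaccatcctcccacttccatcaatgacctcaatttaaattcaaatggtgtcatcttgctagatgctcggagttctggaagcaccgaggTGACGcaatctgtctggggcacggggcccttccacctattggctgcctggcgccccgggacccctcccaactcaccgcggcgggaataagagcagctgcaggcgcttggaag
The full element of Th begins at position -69 from the start, and the core TGACG of Calca at -112. TGACGTCA is in 1.70% of 27457 promoters of this length, TGACG in 19.0%, ATTA in 56.3% and GGGCGG in 32.4%. Among the 9939 promoters of genes tested these shares are 2.94%, 27.9%, 38.8% and 59.5%. In the same order they are 4.56%, 27.7%, 41.8% and 52.6% of 285 promoters of genes called higher in the CVLM, and 1.92%, 18.3%, 33.7% and 58.7% of 208 promoters of genes called higher in the RVLM. A match in these letters is a description of the sequence alone.

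Neuropeptide genes differed in both directions, with more of them higher in the CVLM. Of 37 tested, 17 passed as higher in the CVLM and 8 as higher in the RVLM, 14 and 7 were called, and the median log2 fold change was 0.62. Gal, galanin, which noradrenergic neurons often hold, ran from 10.8 to 174 CPM in the CVLM (median 102) and from 1.55 to 24.4 CPM in the RVLM (median 3.17), a log2 fold change of 4.17 ± 0.40 (SE, edgeR adjusted p = 3.9e-08). It was higher in the CVLM in all 18 rats, and 2 CVLM libraries lay within the RVLM range. Nppc, C-type natriuretic peptide, ran from 21.5 to 47.5 CPM in the CVLM (median 27.6) and from 1.29 to 7.71 CPM in the RVLM (median 3.603), a log2 fold change of 3.11 ± 0.17 (SE, edgeR adjusted p = 2.3e-12). Crh, corticotropin-releasing hormone, ran from 6.601 to 61.5 CPM in the CVLM (median 17.4) and from 0.239 to 3.25 CPM in the RVLM (median 1.395), a log2 fold change of 3.82 ± 0.38 (SE, edgeR adjusted p = 6.5e-08). Nppc and Crh did not overlap between the regions.

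Penk and Sst were among the other peptides higher in the CVLM. Penk, proenkephalin, ran from 380.1 to 891 CPM in the CVLM (median 689.9) and from 56.4 to 531 CPM in the RVLM (median 215), a log2 fold change of 1.71 ± 0.23 (SE, edgeR adjusted p = 3.7e-06). Sst, somatostatin, ran from 32.4 to 286 CPM in the CVLM (median 96.7) and from 2.86 to 156 CPM in the RVLM (median 21.4), a log2 fold change of 2.099 ± 0.31 (SE, edgeR adjusted p = 1.8e-05). Each was higher in the CVLM in 17 of 18 rats. Further log2 fold changes were 4.54 for neuropeptide Y, which many catecholamine neurons hold, 2.73 for neurokinin B (Tac3), 1.77 for PACAP (Adcyap1), 1.45 for prepronociceptin, 1.32 for CART, 1.21 for secretogranin II, 0.67 for substance P (Tac1) and 1.19 for neuromedin U. Npy was at a median of 0 CPM in the RVLM, and Gcg, the proglucagon gene of neurons near the NTS, had medians of 0.683 CPM in the CVLM and 0.107 CPM in the RVLM and 49.6 CPM in the NTS. Trh had a log2 fold change of 3.06 ± 0.46 (SE) with a CVLM median of 6.93 CPM and a highest CVLM value of 249 CPM in the library with serotonergic transcripts. Nmu missed the threshold when 10 wk replicate 2 (edgeR adjusted p = 0.010209) or 8 wk replicate 4 (0.010408) was left out.

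Peptides higher in the RVLM were Calca, Calcb and Uts2, given above, and Ucn, Nppa, Adm, Cck and Apln. Ucn, urocortin, ran from 0.509 to 4.93 CPM in the RVLM (median 1.99) and from 0 to 0.515 CPM in the CVLM (median 0), a log2 fold change of -5.11 ± 0.38 (SE, edgeR adjusted p = 5.2e-10). It was higher in the RVLM in all 18 rats although the highest CVLM library lay just above the lowest RVLM library. Log2 fold changes were -1.61 for atrial natriuretic peptide (Nppa), -1.51 for adrenomedullin, a vasodilator peptide, -1.32 for cholecystokinin and -0.32 for apelin. Apln missed the threshold without 8 wk replicate 1 (edgeR adjusted p = 0.010148).

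Of 36 receptors for peptides that were tested, 19 passed as higher in the CVLM and 5 as higher in the RVLM, with 15 and 1 called and a median log2 fold change of 0.74. Their summed level was higher in the CVLM in 6 of 18 rats. The 13.9% that passed in the RVLM was near the 12.1% over all genes. Glp1r, the receptor of a proglucagon product, ran from 2.68 to 8.27 CPM in the CVLM (median 4.404) and from 0.0597 to 1.67 CPM in the RVLM (median 0.347), a log2 fold change of 3.28 ± 0.28 (SE, edgeR adjusted p = 4.3e-09). Npy2r, a presynaptic receptor of neuropeptide Y, ran from 2.37 to 8.41 CPM in the CVLM (median 3.73) and from 0.119 to 1.49 CPM in the RVLM (median 0.5100), a log2 fold change of 2.81 ± 0.20 (SE, edgeR adjusted p = 1.7e-10). For both genes the ranges stayed apart. Log2 fold changes were 1.801 for the melanocortin receptor Mc4r, 1.75 for the galanin receptor Galr1, 1.49 for the CRH receptor Crhr1, 1.43 for the orexin receptor Hcrtr1 and 1.38 for the somatostatin receptor Sstr2. Vipr2, the receptor of vasoactive intestinal peptide and PACAP that was called higher in the RVLM, ran from 16.9 to 50.96 CPM in the RVLM (median 36.5) and from 2.64 to 9.504 CPM in the CVLM (median 5.49), a log2 fold change of -2.68 ± 0.12 (SE, edgeR adjusted p = 6.5e-14). The other 4 were Npr2, the receptor of C-type natriuretic peptide (-0.68), Ramp1 and Ramp2, partner subunits of receptors for calcitonin gene-related peptide and adrenomedullin (-0.51 and -0.42), and the endothelin receptor Ednrb (-0.23).

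Slc17a7 and several other genes of glutamate release or uptake were higher in the CVLM. Of 9 genes of glutamate release and uptake, 5 passed as higher in the CVLM and 1 as higher in the RVLM. That was 55.6% and 11.1%, the latter near the 12.1% over all genes. Slc17a7, vesicular glutamate transporter 1, ran from 84.96 to 430.4 CPM in the CVLM (median 179) and from 0.477 to 8.03 CPM in the RVLM (median 4.21), a log2 fold change of 5.503 ± 0.17 (SE, edgeR adjusted p = 5.8e-16). The lowest CVLM library lay far above the highest RVLM library, and the NTS had a median of 4.89 CPM. Slc17a6, vesicular glutamate transporter 2, ran from 154 to 367 CPM in the CVLM (median 266) and from 58.8 to 165 CPM in the RVLM (median 105), a log2 fold change of 1.37 ± 0.12 (SE, edgeR adjusted p = 4.3e-09). It was higher in the CVLM in all 18 rats, with 1 CVLM library inside the RVLM range. The carriers Slc38a1 and Slc1a1 had log2 fold changes of 0.63 and 0.23. Slc1a3, a glutamate transporter of astrocytes, was the 1 higher in the RVLM (-0.56).

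Enzymes of GABA synthesis were higher in the CVLM, whose inhibitory neurons act on the RVLM. Of 8 genes of GABA synthesis, transport and breakdown, 2 passed as higher in the CVLM, Gad1 and Gad2, and 1 as higher in the RVLM. That was 25% and 12.5% of the list, against 12.8% and 12.1% over all genes. Gad1 ran from 99.3 to 332 CPM in the CVLM (median 185) and from 30.3 to 152 CPM in the RVLM (median 72.2), a log2 fold change of 1.47 ± 0.21 (SE, edgeR adjusted p = 9.3e-06). Gad2 ran from 81.02 to 304 CPM in the CVLM (median 200.0) and from 39.98 to 196 CPM in the RVLM (median 79.3), a log2 fold change of 1.17 ± 0.23 (SE, edgeR adjusted p = 3.2e-04). Both were higher in the CVLM in 17 of 18 rats, with overlapping ranges. Gad1 gave 1.03 in rats whose library names end in 1 and 2.14 in the others, and Gad2 gave 0.71 and 1.84. Slc32a1, the vesicular transporter of GABA and glycine, did not pass (0.68 ± 0.29 SE, edgeR adjusted p = 0.078), and Slc6a11, a GABA transporter of glia, passed at -0.72.

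Genes of glycine transmission were split, with 3 of 7 higher in the CVLM and 2 in the RVLM. Slc6a5, the glycine transporter of glycinergic neurons, ran from 64.6 to 273 CPM in the CVLM (median 169) and from 31.7 to 194 CPM in the RVLM (median 95.1), a log2 fold change of 0.79 ± 0.21 (SE, edgeR adjusted p = 0.0058). It was higher in the CVLM in 13 of 18 rats and missed the threshold when any of 12 of the rats was left out, up to an edgeR adjusted p of 0.015878 without 8 wk replicate 3. Among receptor subunits, Glra2 and Glra3 were higher in the CVLM (1.11 and 1.304) and Glra1, the adult subunit, in the RVLM (-0.56), as was the glial transporter Slc6a9 (-0.32), which missed the threshold without the 5 rats named above (edgeR adjusted p = 0.018).

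Receptors of the fast transmitters showed subunit by subunit differences. Among GABA-A receptor subunits, Gabra2 (-1.18), Gabrg1 (-0.39) and Gabrb1 (-0.29) passed as higher in the RVLM, and Gabra5 (0.63), Gabrd (0.75) and Gabrq (0.89) as higher in the CVLM. Gabrg1 and Gabrq each missed the threshold when any 1 of 12 rats was left out, up to an edgeR adjusted p of 0.01334 and 0.022199. Gabra2, 1 of the alpha subunits, ran from 23.1 to 69.5 CPM in the RVLM (median 39.9) and from 7.32 to 25.98 CPM in the CVLM (median 19.8), a log2 fold change of -1.18 ± 0.10 (SE, edgeR adjusted p = 5.2e-09), and was higher in the RVLM in 17 of 18 rats. Of 16 ionotropic glutamate receptor subunits, 6 passed as higher in the CVLM, led by the kainate receptor subunit Grik1, which ran from 15.7 to 30.2 CPM in the CVLM (median 20.8) and from 3.13 to 9.79 CPM in the RVLM (median 5.79), a log2 fold change of 1.86 ± 0.10 (SE, edgeR adjusted p = 1.2e-12). Grin3b, an NMDA receptor subunit known from motor neurons, was the 1 higher in the RVLM (-2.56 ± 0.27 SE). Of the metabotropic receptors, Grm2 (2.93) and Grm8 (1.77) were higher in the CVLM and Grm4 (-0.43) in the RVLM. The RVLM shares of ionotropic and metabotropic receptors, 6.25% and 14.3%, were below and near the 12.1% over all genes.

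Acetylcholine receptors passed as higher in the CVLM in 6 of 12 and in the RVLM in 3 of 12. Chrna6, a subunit known from catecholamine neurons, the muscarinic receptor Chrm3 and the brain subunit Chrna4 had log2 fold changes of 2.03, 1.88 and 0.98, and Chrna1, Chrna2 and Chrna3 had -2.06, -0.99 and -0.81. Chrna2 missed the threshold when any 1 of 9 rats was left out, up to an edgeR adjusted p of 0.014305. Of 9 adrenergic and dopamine receptors, Adra1d was higher in the RVLM, with values from 1.67 to 23.98 CPM in the RVLM (median 13.02) and from 0.225 to 6.79 CPM in the CVLM (median 1.53) and a log2 fold change of -2.84 ± 0.28 (SE, edgeR adjusted p = 4.5e-08), in 17 of 18 rats. Adra2a, the receptor through which clonidine acts (0.699), and the dopamine receptor Drd5 (1.05) were higher in the CVLM, and both missed the threshold without single rats, up to an edgeR adjusted p of 0.011015 without 24 wk replicate 1 for Adra2a and 0.013876 without 8 wk replicate 4 for Drd5. Of 9 serotonin receptors, Htr5a (1.34), Htr5b (1.36) and Htr1a (0.79998) were higher in the CVLM and Htr2a (-0.92) in the RVLM. Htr5b missed the threshold when any 1 of 13 rats was left out, up to an edgeR adjusted p of 0.021186 without 24 wk replicate 1. Of the adrenergic and dopamine receptors, 22.2% passed in the CVLM and 11.1% in the RVLM, against 12.8% and 12.1% over all genes. Serotonin receptors gave 33.3% and 11.1%. The RVLM shares of both lists were thus near that over all genes, and their members are described singly.

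Markers of neighbouring structures moved with these groups, and their part in the results above was not tested. All 4 tested genes of the inferior olive list passed as higher in the CVLM (Crh 3.82, Calb1 2.42, Foxp2 2.09 and Htr5b 1.36), and the summed list ran from 33.5 to 182 CPM in the CVLM and from 3.14 to 18.9 CPM in the RVLM. The list holds 5 genes, and Pou4f1 was not tested, with at most 3 counts in any library. Of 6 tested genes of cerebellar granule cells, which other neurons express too, 5 passed as higher in the CVLM (Cbln3 4.21, Neurod2 2.84, Calb2 2.34, Cbln1 2.21 and Pax6 1.08), with sums from 404 to 605 CPM against 85.5 to 232 CPM. Neither sum overlapped between the regions. Calb2, calretinin, made up most of the granule cell sum and ran from 314 to 517 CPM in the CVLM (median 401) and from 23.8 to 158 CPM in the RVLM (median 84.5). Genes of the pre-Botzinger complex, the core of the breathing rhythm, passed as higher in the CVLM in 4 of 6 (Sst, Reln 1.88, Slc17a6 and Cdh9), while Tacr1 and Oprm1 did not pass. Of 6 retrotrapezoid nucleus genes, 3 passed, Gal, Adcyap1 and Slc17a6, which mark many other neurons, and its Nmb at -0.33 ± 0.22 (SE) did not (edgeR adjusted p = 0.28).

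Serotonergic genes passed as higher in the CVLM in 3 of 9. Tph2, the synthesis enzyme of serotonin neurons, ran from 2.78 to 116 CPM in the CVLM (median 4.98) and from 1.62 to 14.6 CPM in the RVLM (median 2.55), a log2 fold change of 1.08 ± 0.19 (SE, edgeR adjusted p = 9.5e-05). The highest value was that of 10 wk replicate 4, and Tph2 still passed without the 5 rats named above. Slc22a3, a monoamine carrier (1.24), and Htr1a were the others, and Slc6a4, the serotonin transporter, at 1.46 ± 0.44 (SE) did not pass (edgeR adjusted p = 0.012). Summed over the list, 10 wk replicate 4 reached 181 CPM in the CVLM, where no other of the 36 libraries passed 45.4 CPM.

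Ion channel genes included some of the clearest single differences. Of 64 potassium channel genes, 18 passed as higher in the CVLM and 17 as higher in the RVLM, with 8 and 10 called. Kcnj14, an inward rectifier known from motor neurons, ran from 107 to 339.8 CPM in the RVLM (median 252) and from 12.9 to 27.2 CPM in the CVLM (median 18.7), a log2 fold change of -3.57 ± 0.10 (SE, edgeR adjusted p = 1.4e-16). Kcnmb4, a subunit of large-conductance calcium-activated channels, ran from 4.65 to 35.7 CPM in the RVLM (median 9.06) and from 0.562 to 2.78 CPM in the CVLM (median 1.100), a log2 fold change of -3.14 ± 0.19 (SE, edgeR adjusted p = 1.6e-11). No CVLM library overlapped the RVLM in either gene. Kcng4, a silent subunit, had -1.97, and the acid-sensing background channels Kcnk3 and Kcnk9 had -1.602 and -1.295. In the other direction, Kcnq5, of the M current, and Kcnv1, a silent subunit, had 1.73 and 1.71.

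Among 10 sodium channel genes, Scn3b (1.27), Scn2a (1.03), Scn2b (0.88) and Scn3a (0.67) passed as higher in the CVLM and none as higher in the RVLM. Calcium channels passed in 7 of 18 as higher in the CVLM, among them the beta subunit Cacnb3 (1.27), and in 4 as higher in the RVLM (Cacna1h -1.76, Cacna1d -1.02, Cacng2 -0.598 and Cacna1g -0.59).

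Transcription factors of hindbrain neurons other than Hox genes passed in 19 of 51 as higher in the CVLM and in 9 as higher in the RVLM. Neurod6, a basic helix-loop-helix factor of excitatory neurons, ran from 16.6 to 39.02 CPM in the CVLM (median 29.5) and from 0.716 to 6.23 CPM in the RVLM (median 1.76), a log2 fold change of 3.84 ± 0.16 (SE, edgeR adjusted p = 1.9e-14). Zic4, a zinc finger factor, ran from 2.52 to 8.81 CPM in the CVLM (median 4.94) and from 0.0636 to 1.77 CPM in the RVLM (median 0.871), a log2 fold change of 2.62 ± 0.21 (SE, edgeR adjusted p = 1.3e-09). Both kept apart in all libraries. Foxp2, Lhx5 and Evx1, factors of interneurons and olivary neurons, had 2.09, 1.96 and 1.68, and the nuclear receptor Nr2f2 had -1.68.

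Genes of retinoic acid, the signal that sets Hox expression in the embryonic hindbrain, passed in 5 of 17 as higher in the CVLM and in 4 as higher in the RVLM. Cyp26b1, which degrades retinoic acid, ran from 10.5 to 28.3 CPM in the RVLM (median 15.7) and from 0.474 to 3.73 CPM in the CVLM (median 1.73), a log2 fold change of -3.08 ± 0.18 (SE, edgeR adjusted p = 1.2e-11). Aldh1a1, a synthesis enzyme, ran from 260.0 to 413 CPM in the RVLM (median 304) and from 125 to 240.5 CPM in the CVLM (median 158), a log2 fold change of -0.94 ± 0.05 (SE, edgeR adjusted p = 4.5e-13). Neither overlapped between the regions. Aldh1a3, another synthesis enzyme, had -3.27 and the carrier Rbp4 -0.84. Those higher in the CVLM included the receptors Rxrg (1.53) and Rarb (0.84), the binding protein Crabp1 (1.41), and Lrat, which stores retinol (1.24).

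Axon guidance genes passed in 7 of 51 (13.7%) as higher in the CVLM and in 9 (17.6%) as higher in the RVLM, near the 12.8% and 12.1% over all genes, so the list as a whole gave no result and single members are described. Sema3c, a repellent secreted semaphorin, ran from 38.3 to 159 CPM in the RVLM (median 83.6) and from 7.42 to 36.4 CPM in the CVLM (median 17.6), a log2 fold change of -2.22 ± 0.10 (SE, edgeR adjusted p = 1.6e-13). Its relative Sema3a and the semaphorin receptor Nrp1 had -1.37 and -1.15, and another semaphorin receptor, Plxnd1, had 1.16. Cadherins passed in 6 of 29 (20.7%) as higher in the CVLM, led by Cdh23 (2.32), and in 4 (13.8%, near the share over all genes) as higher in the RVLM, Cdh22 (-1.51), Cdh12 (-0.76), Cdh6 (-0.64) and Cdh20 (-0.47).

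Of 13 genes of perineuronal nets, the matrix around fast-spiking neurons, Hapln1, a link protein, and Pvalb, parvalbumin, were higher in the CVLM, and Hapln3 (-0.84) and Ptprz1 (-0.41) in the RVLM. That was 15.4% each way, near the 12.8% and 12.1% over all genes. The list as a whole thus gave no result, and single members are described. Hapln1 ran from 21.96 to 88.1 CPM in the CVLM (median 53.01) and from 5.25 to 17.95 CPM in the RVLM (median 9.303), a log2 fold change of 2.39 ± 0.13 (SE, edgeR adjusted p = 2.9e-12). Pvalb ran from 48.5 to 159 CPM in the CVLM (median 69.2) and from 7.34 to 42.6 CPM in the RVLM (median 21.6), a log2 fold change of 2.04 ± 0.16 (SE, edgeR adjusted p = 8.5e-10). Neither gene overlapped between the regions. Of 22 collagens, Col2a1 (1.29) was higher in the CVLM and Col9a1 (-0.77), Col4a2 (-0.62) and Col5a2 (-0.37, lost when any 1 of 11 rats was left out) in the RVLM. These shares of 4.55% and 13.6% were below and near those over all genes.

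Glial and vascular markers differed little in size. Oligodendrocyte genes passed in 8 of 23 as higher in the CVLM and in none as higher in the RVLM, with none called. Mbp, myelin basic protein, ran from 24451 to 42008 CPM in the CVLM (median 31516) and from 19240.0 to 36087 CPM in the RVLM (median 25130.0), a log2 fold change of 0.29 ± 0.06 (SE, edgeR adjusted p = 0.0013), and was higher in the CVLM in 14 of 18 rats. Of 14 astrocyte genes, Gfap, the intermediate filament, was higher in the CVLM (1.04) and Gjb6 (-0.83), Slc7a10 (-0.58), Slc1a3 (-0.56) and S100b (-0.34) in the RVLM. These were shares of 7.14% and 28.6%, against 12.8% and 12.1% over all genes. None of 13 microglial and 6 blood cell genes passed. A single gene passed as higher in the RVLM in each of the endothelial (Slco1c1, -0.204) and pericyte lists (Notch3, -0.69), and the leptomeningeal list gave Ogn (-0.79) in the RVLM and Lum (0.35) in the CVLM. In these vascular and meningeal lists the shares that passed (at most 10% in the CVLM and 12.5% in the RVLM) were near or below those over all genes. Slco1c1 missed the threshold when any 1 of 15 rats was left out, up to an edgeR adjusted p of 0.026326.

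Markers of neurons in general were split, and their sum ran from 16619 to 38385 CPM in the RVLM against 11201 to 17648 CPM in the CVLM. The neurofilaments Nefl, Nefm and Nefh are in this list too, so the sum in part repeats that of the cholinergic and motor neuron list. They made up much of it in the RVLM, with 2770968, 1010340 and 334597 counts there against 898502, 244087 and 82249 in the CVLM. The sum is therefore no measure of neuronal RNA in general. The RVLM had the higher levels of Tubb3, a neuronal tubulin (-1.44), Stmn2 (-1.16) and the neurofilaments, and the CVLM those of the synaptic vesicle proteins Syt1 (1.75), Snap25 (0.42) and Syp (0.34) and of Elavl4 (0.497). Syt1 ran from 176 to 397 CPM in the CVLM (median 329) and from 46.9 to 202 CPM in the RVLM (median 92.8) and was higher in the CVLM in all 18 rats.

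Of the choroid plexus list, 5 genes were tested. Tmem72 (4.705) and Prlr (1.27, lost when any 1 of 11 rats was left out) were higher in the CVLM and Clic6 (-2.85) in the RVLM, while Ttr, its defining transcript, did not pass (2.403 ± 0.76 SE, edgeR adjusted p = 0.018). The summed list was higher in the CVLM in all 18 rats, at 7.73 to 196 CPM against 4.20 to 10.8 CPM. Tmem72 and Ttr made up most of this sum in the CVLM, with 1749 and 2744 counts there against 64 and 129 in the RVLM. The highest CVLM library held 1932 of the Ttr counts. Clic6 went the other way, with 122 counts in the CVLM and 901 in the RVLM. The sum therefore rests on few genes and does not show the list as a whole to be higher in the CVLM. Otx2, which defines the tissue, had no count in either region. Of 8 ependymal genes, Rsph9 (1.503) was higher in the CVLM and Spag6 (-2.45) and Cfap43 (-0.78) in the RVLM. Their shares were 12.5% and 25%, against 12.8% and 12.1% over all genes. Complex I and cytosolic ribosomal protein genes gave 1 gene that passed of 34 (Ndufa4, 0.295, lost when any 1 of 13 rats was left out) and of 73 rows (Rplp0, -0.25), both far below the share over all genes.

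Genes of the brain renin-angiotensin system, which raises pressure when active in the RVLM, passed in 6 of 12 as higher in the CVLM and in 3 as higher in the RVLM. Mas1, the receptor of angiotensin-(1-7), was at 1.72 CPM in the CVLM and 0.0316 CPM in the RVLM by the medians, a log2 fold change of 3.57 ± 0.39 (SE, edgeR adjusted p = 2.1e-07). Mme, neprilysin, which makes and degrades angiotensin peptides, ran from 3.402 to 9.12 CPM in the CVLM (median 6.17) and from 0.636 to 2.98 CPM in the RVLM (median 1.65), a log2 fold change of 1.88 ± 0.17 (SE, edgeR adjusted p = 1.0e-08). Mme did not overlap between the regions. The converting enzyme Ace and the receptor Agtr1a had 0.81 and 0.72. Agt, the angiotensinogen that astrocytes make, ran from 631 to 1205 CPM in the RVLM (median 980.3) and from 399 to 949 CPM in the CVLM (median 719.9), a log2 fold change of -0.47 ± 0.06 (SE, edgeR adjusted p = 1.5e-06), and was higher in the RVLM in all 18 rats, and Agtr2 and the protease Ctsd had -0.58 and -0.34. Among 10 immediate early genes, shares near those over all genes passed (1 and 2), and Egr1 was higher in the CVLM (1.37) and Jun (-1.04) and Junb (-0.48) in the RVLM, with Junb lost when any 1 of 5 rats was left out (edgeR adjusted p up to 0.01133), while Fos did not pass (-0.04 ± 0.09 SE, edgeR adjusted p = 0.79).

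The 10 called genes with the largest fold change in each direction, at a mean of at least 1 CPM and with 1 sign in all 18 rats, were chosen from 217 and 214 eligible genes. Higher in the CVLM were Hoxb5, Slc17a7, Hoxc5, Gal and Tmem72, given above, and Duox2 (6.01), which makes hydrogen peroxide, Tyrp1 (5.57), an enzyme of pigment cells, Prss22 (5.23), a serine protease, Insrr (4.34), an insulin receptor relative that senses alkaline pH, and Cyp11b3 (4.16), a steroid hydroxylase whose near-identical copies make its reads uncertain. Duox2 ran from 12.9 to 46.9 CPM in the CVLM (median 27.9) and from 0 to 0.824 CPM in the RVLM (median 0.377), a log2 fold change of 6.01 ± 0.22 (SE, edgeR adjusted p = 3.1e-15). Tyrp1 ran from 4.28 to 18.3 CPM in the CVLM (median 11.9) and from 0 to 0.618 CPM in the RVLM (median 0.226), a log2 fold change of 5.57 ± 0.25 (SE, edgeR adjusted p = 1.2e-13). Both also lay far below the CVLM in the NTS, at medians of 1.02 and 0.297 CPM.

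Higher in the RVLM were Ucn, Calca, Isl1 and Slc18a3, given above, with Ocm2, Adam7 (-6.49), Trim58 (-5.88), Sln (-5.04), Calhm5 (-4.24) and Prr32 (-4.24). Trim58, a ubiquitin ligase, ran from 2.13 to 10.7 CPM in the RVLM (median 8.24) and from 0 to 0.279 CPM in the CVLM (median 0.105), a log2 fold change of -5.88 ± 0.26 (SE, edgeR adjusted p = 6.5e-14). Adam7, a disintegrin family protein, ran from 0.948 to 8.53 CPM in the RVLM (median 5.06) and from 0 to 0.217 CPM in the CVLM (median 0), a log2 fold change of -6.49 ± 0.33 (SE, edgeR adjusted p = 1.0e-12). Ocm2, a relative of oncomodulin, had 2 counts over the CVLM libraries and 527 over the RVLM libraries, a ratio of group totals of 264 (95% exact interval 72.8 to 2189, covering counting error only), and its paralog may share reads. Sln, sarcolipin, which inhibits calcium pumps, Calhm5 and Prr32 were likewise near 0 in the CVLM, with medians of 0.0314, 0.458 and 0 CPM.

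Whether the regional difference depended on age was tested with 4 degrees of freedom. No gene passed (edgeR, lowest adjusted p = 0.346, 0.0%), 1020 had an unadjusted p below 0.05, DESeq2 gave 15 and limma voom gave 0. Of the called genes, 389 of 399 and 314 of 317 had the same sign at all 5 ages. They were called from these same rats, so the shared sign is no separate support. The 5 genes with the lowest p were Lamb3, Nnmt, Zfp36, Htr2c and Cpne6, with adjusted p from 0.35 to 0.40 by edgeR's quasi-likelihood test. Lamb3, a laminin chain, had means of 32.2, 35.7, 71.9, 70.3 and 59.9 CPM in the CVLM from the youngest to the oldest group and of 8.80, 6.30, 4.41, 4.72 and 4.43 CPM in the RVLM. Htr2c, a serotonin receptor, had log2 fold changes of 0.54, 0.18, -0.57, -0.97 and -0.64 at the 5 ages. Nnmt, which methylates nicotinamide, had -2.28, -1.70, -0.88, -0.28 and -1.15. The rats of 8 and 10 wk hold all 7 whose library names end in 2, with 2 rats of 8 wk ending in 1, so the age and this number can be told apart only in part and were not separated in these genes.

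The same contrast in 28 SHRs, which share no library with the WKY rats, gave 2209 genes (16.4%) that passed as higher in the CVLM and 2458 (18.3%) as higher in the RVLM, 34.7% in all, with 290 (2.16%) and 292 (2.17%) called. Of the 399 genes called higher in the CVLM of WKY rats, 398 had the same sign in SHRs, 380 passed there and 259 were called. Of the 317 called higher in the RVLM, these numbers were 316, 310 and 249. The median log2 fold change of the called genes was 1.45 in WKY rats and 1.19 in SHRs for the CVLM, and -1.46 and -1.34 for the RVLM, and since the genes were chosen by their WKY values, smaller values in SHRs carry no test. Single genes in SHRs had log2 fold changes of 6.21 (Hoxb5), -4.31 (Slc18a3), 2.81 (Dbh), 1.22 (Th), 0.81 (Pnmt), 3.502 (Gal), 5.02 (Slc17a7), 0.85 (Gad1) and -5.06 (Calca).

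**Figure D5:**
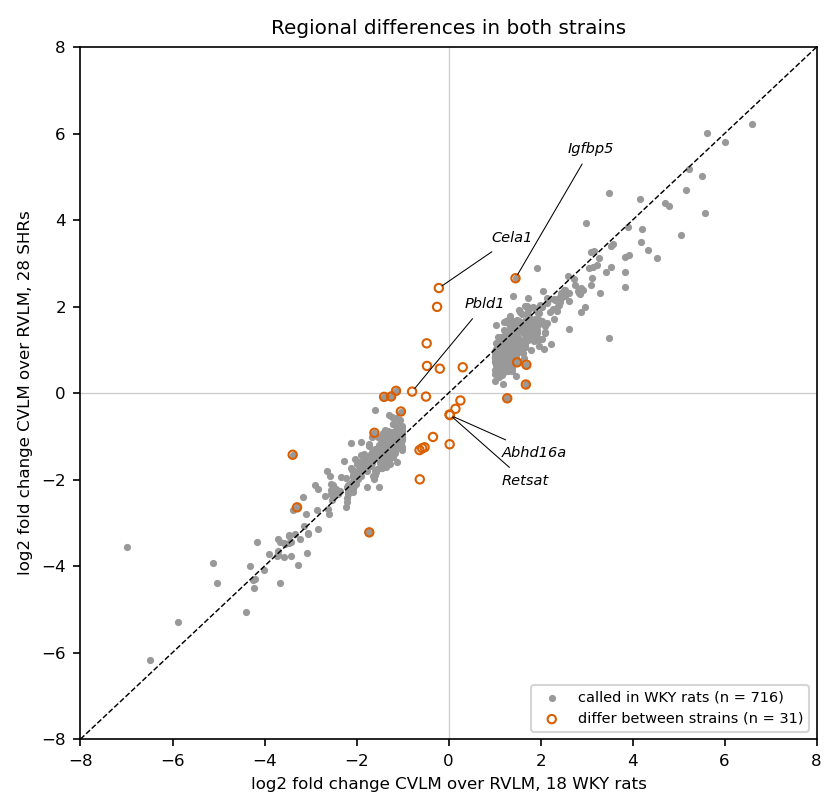
Each point is a gene, with its log2 fold change of CVLM over RVLM in 18 WKY rats on the x axis and in 28 SHRs on the y axis, grey for the 716 genes called in WKY rats and orange rings for the 31 whose difference depended on strain. The points lie along the dashed line of equal values, and the 5 labelled genes are those with the lowest p for the difference between strains.

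The difference itself was tested as strain by region over all 46 rats. It passed for 31 genes (0.23%, 836 at an unadjusted p below 0.05), of which 22 had also passed and 13 had been called in WKY rats. Retsat, a retinol saturase, was at 176 ± 13.8 CPM in the CVLM and 174 ± 20.2 CPM in the RVLM (mean ± SD, n = 18) in WKY rats and at 67.4 ± 5.61 CPM in the CVLM and 95.2 ± 12.3 CPM in the RVLM (n = 28) in SHRs, a difference of log2 fold changes, WKY minus SHR, of 0.50 ± 0.05 (SE, edgeR adjusted p = 2.8e-08). Its levels were alike in the 2 regions of WKY rats and lower in the CVLM than in the RVLM of SHRs. Igfbp5, a binding protein of insulin-like growth factors, was at 23.3 ± 7.07 CPM in the CVLM and 8.94 ± 4.55 CPM in the RVLM in WKY rats and at 81.4 ± 20.8 CPM in the CVLM and 12.9 ± 3.75 CPM in the RVLM in SHRs, a difference of -1.22 ± 0.14 (SE, edgeR adjusted p = 2.3e-07). Both strains had it higher in the CVLM. Cela1, an elastase, was at 3.21 ± 0.983 CPM in the CVLM and 3.79 ± 1.56 CPM in the RVLM in WKY rats and at 1.02 ± 0.518 CPM in the CVLM and 0.182 ± 0.171 CPM in the RVLM in SHRs, a difference of -2.65 ± 0.35 (SE, edgeR adjusted p = 3.3e-06). Only SHRs had Cela1 called higher in the CVLM. Abhd16a, a lipase, and Pbld1 gave 0.03 ± 0.04 and -0.79 ± 0.11 in WKY rats and -0.51 ± 0.05 and 0.03 ± 0.05 in SHRs (SE). Of the list members, Crhr1 and Kcne2, a potassium channel subunit, depended on strain, Crhr1 with 1.49 in WKY rats and 0.71 in SHRs (edgeR adjusted p = 0.0013) and Kcne2 with -1.25 and -0.08 (edgeR adjusted p = 2.7e-04).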

How the data were processed

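The authors deposited expected counts per gene from RSEM with the STAR aligner, not normalized, in 1 table per region. Mapping was to the rat build rn6. The methods also name ComBat_seq as a batch correction without saying if the deposited counts carry it, and 4.95% of CVLM and 4.88% of RVLM values are not whole. Columns were matched to samples by name and 0 were left unmatched. Whether strand was used in counting is not given in the sources used here.

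Expected counts were rounded and genes kept when the largest DESeq2 rlog value over the 36 libraries reached 3.5. TMM factors, estimateDisp, glmQLFit (robust) and glmQLFTest of edgeR 4.0.16 (R 4.3.3) were used with the rat as a block. Further fits tested region by age, the same contrast in SHRs and strain by region, all adjusted by Benjamini and Hochberg. DESeq2 1.42.0 and limma 3.58.1 were alternatives. Scripts were tested on simulated data. The common biological coefficient of variation was 0.224. Libraries of 1 rat deviated together (median correlation 0.343, range -0.112 to 0.589). The median was -0.0376 between different rats and 0.126 between different rats of the same age. Only 4 of 18 CVLM libraries correlated best with their own RVLM library. The lowest chi-square per gene between 50 pairs of libraries within a group was 9.17, so none repeated another. P values measure the spread between animals.

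The members, the 44 gene lists and the rule for named genes (the 10 largest called changes each way at a mean of at least 1 CPM and 1 sign in all rats, Hox genes, members of discussed lists, and the 5 lowest p by age and by strain) were chosen with earlier results of these data known. Promoter sequences came from RefSeq, which matched 9939 of the genes tested. A few members of the lists are counted but not reported here by name.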

Additional observations from a re-analysis of the deposited data

Results flagged for a closer look

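Within the 4 rats of 10 wk and the 5 rats of 8 wk, the log2 ratio of CVLM to RVLM CPM (0.1 added) of each named gene was screened for 1 rat far from the others by Dixon's criterion. Of 452 groups for 226 genes, 25 had such a rat, and chance alone would give about 1 in 20. The rat of 10 wk replicate 4, whose CVLM library held serotonergic transcripts, had the highest ratio of Tph2 (2.98, other rats 0.609 to 1.00), Slc6a4 (3.76, 0.725 to 1.24) and Cck (1.91, -2.11 to -1.42), and the lowest of Drd5 (-0.872), Hoxa2 (0.72), Lhx5 (1.38) and Uts2 (-4.82). Cck thus changed direction in this rat alone, with 12.1 CPM in the CVLM and 3.15 CPM in the RVLM. The rat of 8 wk replicate 3, whose RVLM library had the highest sum of complex I genes, had the highest ratio of Ace (2.16), Crhr1 (2.03), Htr5a (6.02, with 0 CPM in the RVLM), Scn3a (2.63), Slc5a7 (-2.22) and Slco1c1 (0.547), and the lowest of Rbp4 (-2.49) and Rplp0 (-1.22).

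Single values in other rats concerned a gene or a few each. At 8 wk they were Cdh22 (-3.36) and Nr2f2 (-3.03) in replicate 1, Foxp2 (0.0738), Kcnv1 (2.62) and Lhx4 (-4.56, with 0 CPM in the CVLM) in replicate 2, Gcg (4.82, with 0 CPM in the RVLM) in replicate 4 and Galr1 (3.06) in replicate 5. At 10 wk replicate 1 had the lowest Hoxd3 (1.24), Plxnd1 (-0.0834) and Prph (-4.18).

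The regional difference depended on strain (edgeR's interaction test) in 7 named genes, and the WKY minus SHR difference of the log2 fold change was 0.50 for Retsat, -1.22 for Igfbp5, 0.53 for Abhd16a, -0.84 for Pbld1, -2.65 for Cela1, 0.77 for Crhr1 and -1.18 ± 0.20 (SE) for Kcne2.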

How the results depend on the processing

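Under DESeq2 size factors, library totals, DESeq2, limma voom, filterByExpr and no filter, the counts of genes called in WKY rats stayed within 1.5 times 399 and 317, and library totals shifted the median of all genes by 0.039 (log2). Each age alone, with 3 to 5 rats, called fewer genes: 258 in the CVLM at 8 wk, 39 and 79 (CVLM and RVLM) at 12 wk, 36 and 49 at 16 wk and 18 and 59 at 24 wk. A log2 fold change above 2 left 79 and 83. Leaving out 1 rat gave 366 to 421 CVLM calls and 309 to 331 RVLM calls, 0 that depended on age and 26 to 34 that depended on strain. The latter number was 17, 17 and 19 without the rats of 8, 10 and 24 wk. Without a filter 517 genes were called in the CVLM of SHRs. Genes that depended on age were 15 with DESeq2. At single ages the lists had, as passed, 4 (8 wk), 3 (12 wk), 1 (16 wk) and 2 (24 wk) Hox genes, 7 (16 wk) and 6 (24 wk) cholinergic genes, 4 (8 wk) and 0 (12, 16 and 24 wk) catecholamine genes, and 9 (10 wk), 1 (12 wk), 0 (16 wk) and 1 (24 wk) neuropeptides higher in the CVLM, where edgeR had few residual degrees of freedom. Directions that reversed were Pnmt (-0.13), Tac1 (-0.10), Nmu (-0.060), Gad2 (-0.019), Slc6a5 (-0.44) and Htr1a (-0.39) at 16 wk alone, Glra1 (0.067) at 10 wk alone, and Gabrd (-0.052) and Ndufa4 (-0.083) at 8 wk alone, none past the threshold there, and the cause was not tested.

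The rat pairs the libraries because both punches came from 1 animal. Without the replicate block, 392 and 320 genes were called in WKY rats, 274 and 291 in SHRs, 29 depended on strain and 1 on age, and the Hox, cholinergic, catecholamine and neuropeptide (CVLM) lists had 8, 13, 9 and 17 that passed. Without the 5 rats of the libraries that stood apart, chosen after seeing the data, 426 and 347 were called, 0 depended on age, 23 depended on strain, and these lists had 8, 13, 10 and 18. In that alternative Slc6a2, Slc6a9, Gabrb1, Grm4, Chrna2, Lum and Col5a2 missed the threshold. Named genes that passed but missed the threshold when 1 rat was left out included Slco1c1 (for any of 15 of the 18 rats), Htr5b and Ndufa4 (13), Slc6a5, Gabrg1 and Gabrq (12), Prlr and Col5a2 (11), Drd5 and Chrna2 (9), Slc6a9 (7), Junb (5), Grm4 (3), Nmu, Adra2a, Gabrb1 and Gabrd (2) and Apln (1), up to an edgeR adjusted p of 0.026326. At this depth the median standard error of a log2 fold change was 0.0992, and genes with few counts in 1 region have fold changes that rest on those counts.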
